A study of Mus musculus with 13 samples.

Results

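The cells described are macrophages of mouse colon tumors that carried many transcripts of the complement component C1q and few of Spp1, which encodes the secreted protein osteopontin. They were selected on measured values: a barcode was taken when C1qa, C1qb and C1qc together gave at least 20 unique molecular identifiers (UMIs, each counting 1 captured transcript), Spp1 gave fewer than 5, and Cd3e (T cells), Cd79a (B cells) and Cxcr2 (neutrophils) gave none. Barcodes were first held to a minimum of 500 UMIs and of 200 genes, and to under 25% mitochondrial UMIs. Of the 118892 that passed, 5201 met the rule, 5136 of 93871 in the 10 tumor libraries and 65 of 25021 in the 3 libraries of adjacent mucosa. Both tissues came from C57BL/6J mice of 1 genotype, ApcMin/+; p16cis/cis, which joins a mutation of the intestinal tumor suppressor Apc to an engineered p16 epimutation, and all were fed the supplemented diet, in which choline, betaine, folic acid and vitamin B12 were raised. No library had another genotype or diet, so neither can be compared here. The libraries came from 3 animals by the codes in their labels, called here A (24 weeks, tumors 5 to 8 and mucosa 2), B (23 weeks, tumors 9 and 10 and mucosa 3) and C (20 weeks, tumors 1 to 4 and mucosa 1). Mucosa was dissociated with EDTA followed by a trypsin substitute and tumors with an enzyme kit for tumor tissue, so tissue and dissociation cannot be told apart. The values at the rule's edges were continuous: 99 members had 4 Spp1 UMIs and 82 other C1q-rich barcodes had 5, while 311 members had 20 to 24 C1q UMIs and 338 barcodes that passed every other gate had 15 to 19.

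C1q is the recognition unit of the classical complement pathway and binds antibody complexes and dying cells. Macrophages are its main source in most tissues, and in the gut wall C1q marks mature macrophages that descend largely from blood monocytes, take up dead cells, present antigen on MHC class II and live beneath the epithelium. In tumors, macrophages rich in C1q are commonly set against macrophages rich in Spp1, which carry genes of lipid storage, matrix and low oxygen.

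The members were deep libraries in tumors and shallow ones in mucosa. The median member carried 7825 to 11815 UMIs in the tumor libraries against 3742.5 to 5195 in the other tumor barcodes, and 3553 to 5164 in the mucosa libraries against 8250 to 10874 in the other mucosa barcodes. In all, members gave 2639768 to 8180248 UMIs per tumor library and 71697, 109086 and 190634 in mucosa 1, 2 and 3, where a single UMI stands for 13.9, 9.17 and 5.25 CPM (counts per 1000000 UMIs of the members). A doublet score marked 2.51 to 7.69% of tumor members, near the 5.88 to 8.87% of other tumor barcodes, and 13.9 to 20.0% of mucosa members against 4.11 to 8.53% of other mucosa barcodes. Pairs of libraries shared 10 to 39 barcode sequences, and 2 member barcodes occurred in more than 1 library. The sex labels differed among libraries with 1 animal code, and all 13 libraries, 7 of them labelled female, held Y-linked transcripts at 6949 to 12845 UMIs with 1 to 10 Xist UMIs. Sex was therefore not used.

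The markers given for these cells were present in tumors. C1qa and C1qc chose the members and are given as a description, at 4532 to 5731 CPM for C1qa and 2684 to 3404 CPM for C1qc over the tumors. After each member was thinned to 2000 UMIs, a UMI of Pf4, a chemokine of the CXC family, was found in a median of 41.8% of tumor members. The same median was 23.2% for Mrc1, the mannose receptor, 23.1% for the adhesion molecule Vcam1 and 18.0% for Ccl8, a chemokine that recruits monocytes and lymphocytes. Csf1r, the receptor for the growth factor macrophages need, was found in 61.8%, Fcgr1, a receptor for antibody, in 44.1%, Cx3cr1 in 28.8% and Adgre1, the gene of the F4/80 antigen, in 27.3%. T cells of the same tumors, taken at 2 or more Cd3e UMIs and no C1q UMI and thinned alike, had median shares from 0 to 1.02% for these 8 genes. That gate left out T-cell barcodes with C1q transcripts, so these shares may understate free RNA of macrophages. Unthinned, the shares in members ran from 54.0 to 71.3% for Pf4, 45.6 to 73.5% for Mrc1, 26.0 to 53.5% for Vcam1 and 16 to 39.1% for Ccl8. Lyz2, Apoe and H2-Ab1 were found in nearly all thinned members, at medians of 99.1, 98.5 and 92.4%. S100a8 of neutrophils and the antibody gene Igkc stood at 13.2 and 46.8% in members and at 14.2 and 55.8% in T cells, so both were at the background. Genes of other cell types were present in tumor members at unequal levels: the 11 genes of T and NK cells summed to 2.92 to 21.9 CPM, the 10 of dendritic cells to 8.08 to 31.4 CPM, and the 12 of neutrophils to 188 to 604 CPM. Those of fibroblasts and endothelium, 8 genes, summed to 24.6 to 85.9 CPM, the 10 of B and plasma cells to 189 to 1087, the 16 epithelial genes to 276 to 1405 and the 10 of mast and erythroid cells to 4.42 to 2758. In the other barcodes of the tumors the last 3 lists summed to 18328 to 78363, 4691 to 10515 and 302 to 14241 CPM. Members of mucosa 1 carried the T and NK genes at 391 CPM.

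Members made up a far larger part of the tumors than of the mucosa. Their share of retained barcodes was 3.37% in the lowest tumor, 5.34% in the median tumor and 7.79% in the highest. In mucosa 1, 2 and 3 it was 0.193% (10 of 5188 barcodes; exact Clopper-Pearson 95% interval 0.0925 to 0.354%), 0.178% (19 of 10684; 0.107 to 0.278%) and 0.393% (36 of 9149; 0.276 to 0.544%). Every tumor lay above every mucosa library. The mean over animals was 5.37% ± 0.30 in tumors and 0.255% ± 0.12 in mucosa (SD, n = 3 animals), a difference of 5.12 percentage points (exact permutation test within animals, two-sided p = 0.0133, the smallest that the 75 assignments allow). Without animal A or animal C the difference was 5.18 or 4.91 points and p = 0.0667, the smallest that 15 assignments of the exact permutation test allow. With members held to no UMI of Epcam, Krt8, Csf3r, Jchain, Flt3 and Mki67 as well, the share was 1.33 to 3.402% in tumors and 0.154, 0.0468 and 0.175% in mucosa, and the difference 1.93 points (exact permutation p = 0.0133). Among barcodes with a UMI of Ptprc, the pan-leukocyte gene CD45, the share was 4.71 to 10.2% in tumors and 0.416, 0.497 and 1.23% in mucosa. A Ptprc UMI was held by 8 of 10, 7 of 19 and 27 of 36 members of mucosa 1, 2 and 3. In tumors it was held by from 499 of 624 members in tumor 2 to 445 of 479 in tumor 8. Lower recovery of macrophages and fewer macrophages in the tissue cannot be told apart in these shares. The tumors of the 3 animals had mean shares of 5.17% (A), 5.23% (B) and 5.72% (C), which the exact permutation test over 3150 arrangements did not separate (p = 0.868, adjusted over 2 tests 0.868).

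**Figure D1:**
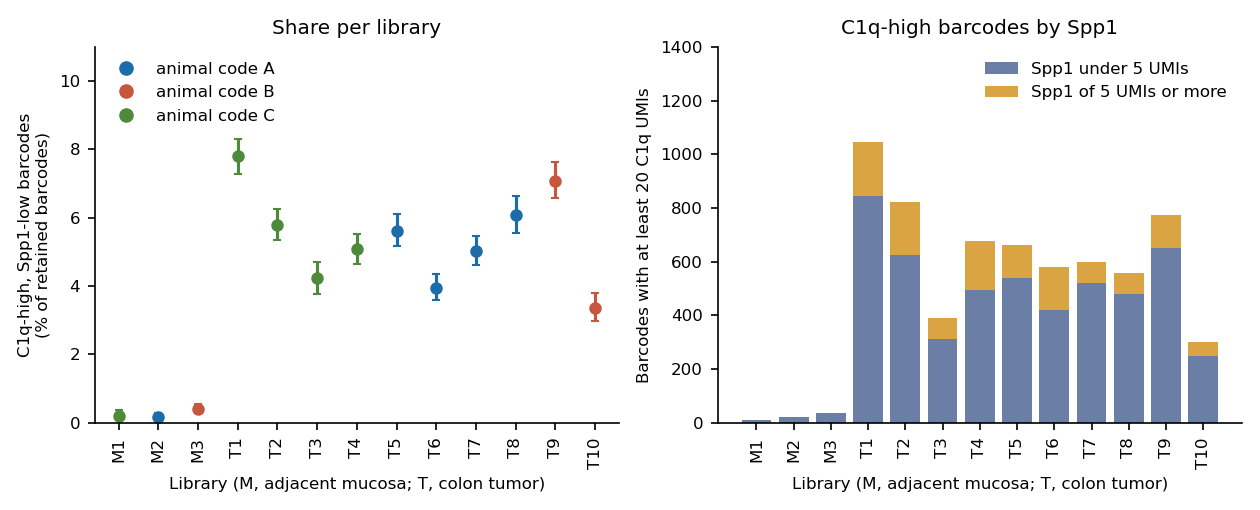
Left, share of members among retained barcodes per library (percent), colored by animal, with exact Clopper-Pearson 95% intervals as bars. Right, number of C1q-rich barcodes per library, stacked by Spp1 under 5 UMIs (members) and 5 or more. The 10 tumors (T) lie between 3.37 and 7.79% and the 3 mucosa libraries (M) between 0.178 and 0.393%, and no mucosa bar has a part with 5 or more Spp1 UMIs.

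The Spp1 limit removed C1q-rich barcodes from tumors only. Members were 72.7 to 87.3% of C1q-rich barcodes in tumors (median 81.1%), and the other 1262 C1q-rich tumor barcodes had at least 5 Spp1 UMIs. All 10, 19 and 36 C1q-rich barcodes of mucosa 1, 2 and 3 were members. With 1 mucosa library of 20 or more such barcodes, the exact permutation test of this difference (-16.2 points within animal B) has 3 assignments and cannot pass the threshold (p = 0.333). No Spp1 UMI at all was found in 4131 of the 5136 tumor members and in any of the 65 mucosa members.

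Within the tumors the members varied along 3 genes that the rule did not use: Mrc1, the mannose receptor, Arg1, the arginine-degrading enzyme arginase, and Cxcl9, a T-cell-attracting chemokine induced by interferon gamma. The 3 genes were chosen after their values were seen, and the splits are a description with no test. In the 5040 tumor members thinned to 2000 UMIs, 1363 had a Mrc1 UMI, 1555 an Arg1 UMI and 1241 a Cxcl9 UMI. Per tumor library, the thinned share with Arg1 ran from 22.5 to 42.7%, with Mrc1 from 18.3 to 46.3% and with Cxcl9 from 7.49 to 30.8%. The 3 genes were close to absent from T cells, whose gate allowed no C1q UMI, at medians of 0, 0.76 and 0.61% for Mrc1, Arg1 and Cxcl9. A member without a UMI may still express the gene, so each split compares richer with poorer members.

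Members with a Mrc1 UMI carried more transcripts of other genes of settled tissue macrophages. Ccl8 stood at 1558 ± 806 CPM in them and at 332 ± 191 CPM in the others (SD, n = 10 tumors). Selenop, which encodes a selenium-carrying plasma protein, was at 923 ± 236 against 358 ± 83.6 CPM, and the scavenger receptor Stab1 at 272 ± 88.0 against 115 ± 28.1 CPM. Vcam1 was at 432 ± 116 against 143 ± 56.6 CPM, the growth factor Igf1 at 56.6 ± 23.8 against 18.5 ± 8.22, and Gas6, a bridge between dying cells and their receptors, at 52.3 ± 32.6 against 16.4 ± 7.37. All of these were higher in each of the 10 tumors, as were 6 of 10 measured genes of the resident macrophage list other than Mrc1, where 6.86% of the 2536 genes compared were higher in every tumor. Members without a Mrc1 UMI carried more transcripts of most monocyte genes compared, and of Nos2. Plac8 was at 187 ± 163 CPM with a Mrc1 UMI and 947 ± 273 without, Chil3 at 98.2 ± 111 against 355 ± 162, and Nos2, the inducible nitric oxide synthase, at 17.5 ± 17.4 against 89.1 ± 68.7. Of the monocyte list 11 of 14 genes were lower in every tumor, of the hypoxia and glycolysis list 11 of 19 and of the inflammatory list 10 of 20, beside 7.85% of all genes compared.

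Members with an Arg1 UMI carried more transcripts of most hypoxia and glycolysis genes. Cxcl3, a neutrophil-attracting chemokine, was at 520 ± 221 CPM against 35.5 ± 29.8 in members without an Arg1 UMI. The elastin-degrading Mmp12 was at 650 ± 297 against 147 ± 57.6 CPM, the gelatinase Mmp9 at 265 ± 295 against 24.4 ± 29.1, and Hmox1, which breaks down heme, at 905 ± 456 against 298 ± 140. Nos2, which like Arg1 acts on arginine, stood at 153 ± 83.8 against 30.5 ± 36.8 CPM, while the higher Arg1 level of these members was set by the split. In every tumor 16 of 19 hypoxia and glycolysis genes, 10 of 16 matrix and growth factor genes, 8 of 19 inflammatory genes other than Arg1 and 7 of 20 chemokines were higher, beside 6.95% of the 2433 genes compared. Ccl8 fell to the other side, at 118 ± 80.3 CPM with an Arg1 UMI and 935 ± 483 without, with Mgl2, a lectin, at 11.4 ± 10.7 against 94.4 ± 71.6. Of the MHC class II list 7 of 10 genes and of the dissociation stress list 11 of 23 were lower in every tumor, where 5.34% of all genes were.

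Members with a Cxcl9 UMI carried genes that interferon gamma induces. Ccl5, another T-cell chemokine, was at 2215 ± 806 against 480 ± 273 CPM, Cxcl10 at 764 ± 412 against 150 ± 74.3, and the guanylate-binding proteins Gbp2 and Gbp5 at 461 ± 167 against 159 ± 57.0 and at 88.8 ± 14.5 against 34.5 ± 13.6. Of the interferon list 12 of 16 genes and of the MHC class I list 10 of 14 were higher in every tumor, beside 3.73% of the 2442 genes compared. Ccr2, the chemokine receptor with which monocytes leave the blood, was at 76.5 ± 40 CPM with a Cxcl9 UMI and 193 ± 47.5 without, and Fn1, fibronectin, at 166 ± 73.3 against 340 ± 66.1. Lower in every tumor were 5 of 13 monocyte genes and 6 of 23 dissociation stress genes, beside 2.21% of all genes compared.

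**Figure D2:**
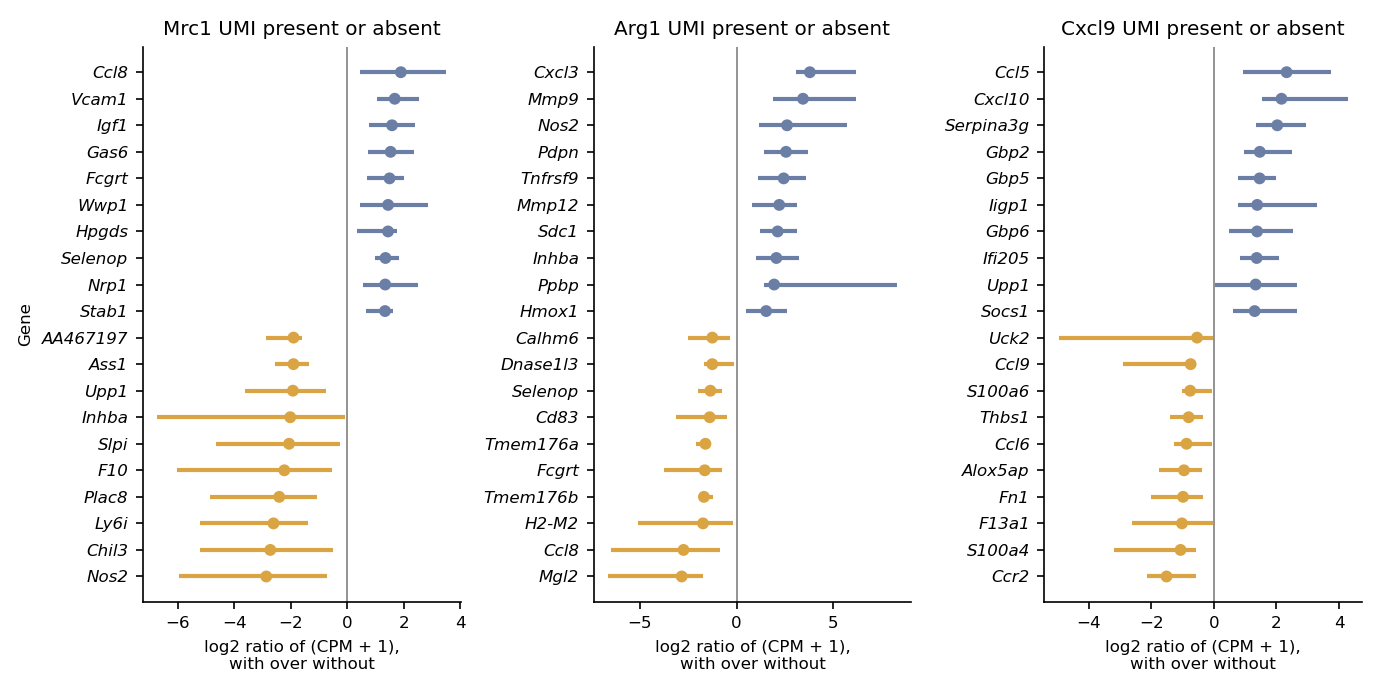
Log2 ratio of CPM + 1 in tumor members with over without a UMI of Mrc1, Arg1 or Cxcl9 after thinning, for the 10 genes in each direction with the largest median ratio among those with 1 direction in every tumor. Points are medians over the 10 tumors and bars run from the lowest to the highest tumor, and Ccl8 is on the right for Mrc1 and on the left for Arg1.

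The C1q-rich barcodes with 5 or more Spp1 UMIs are the nearest cells to the members, and this contrast is that of the rule, so it is described with no test. They were deeper, with a median of 12255 to 18431 UMIs per library. Members carried 654 ± 344 CPM of Ccl8 against 25 ± 20.8 in Spp1-rich barcodes (SD, n = 10 tumors), 852 ± 428 against 141 ± 111 CPM of Ccl5, 504 ± 176 against 141 ± 85.8 CPM of Cxcl9 and 220 ± 78.2 against 27.7 ± 16.3 CPM of Vcam1. Dnase1l3, a secreted enzyme that digests DNA of dying cells, was at 79.3 ± 34.2 against 7.92 ± 6.20 CPM. Tmem176a and Tmem176b, a pair of membrane proteins of antigen-presenting cells, were at 342 ± 85.3 against 54.6 ± 11.9 and at 423 ± 96.6 against 69.4 ± 14 CPM. The Spp1-rich barcodes carried Gpnmb, a membrane protein of lipid-laden macrophages, at 373 ± 219 CPM where members had 19.4 ± 9.54. In the same direction were Atp6v0d2, a subunit of the proton pump of lysosomes, at 83.8 ± 55.5 against 2.99 ± 2.26, Mfge8, which bridges dying cells to integrins, at 498 ± 369 against 65.3 ± 20.7, and Fn1 at 912 ± 231 against 255 ± 60.1. By group, 7 of 9 MHC class II genes, 11 of 12 interferon genes and 11 of 14 MHC class I genes were higher in members in all 10 tumors, and none was lower, beside 18.1% of the 2431 genes compared. The dissociation stress list had 10 of 22 genes higher and none lower, the macrophage transcription factors 11 of 23 and none lower, and the B and plasma list all 3 of its compared genes higher, and the part of stress and of other cells in this contrast was not tested. Lower in members in all 10 tumors were 16 of 24 lipid and lysosome genes and 15 of 19 hypoxia and glycolysis genes, beside 14.1%.

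**Figure D3:**
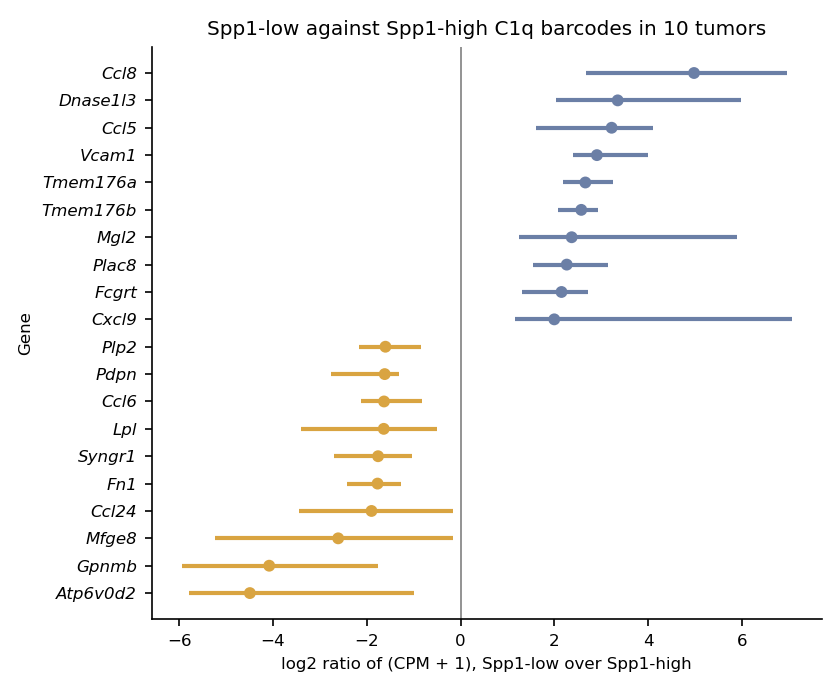
Log2 ratio of CPM + 1 in members over C1q-rich barcodes with 5 or more Spp1 UMIs, for the 10 genes in each direction with the largest median ratio among those with 1 direction in every tumor. Points are medians over the 10 tumors and bars run from the lowest to the highest tumor, with Ccl8 at a median of 4.98 and Atp6v0d2 at -4.49.

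Barcodes with at least 3 UMIs of the monocyte gene Ly6c2 and fewer than 5 of C1q, 3517 in the tumors, gave a further reference. Their own leading genes included Siglech, Ly6d and Ccr9 of plasmacytoid dendritic cells, at means of 89.3, 271 and 76.0 CPM, so they were not a pure monocyte group and are named by the gate. Pf4 stood at 1395 ± 470 CPM in members and 11.4 ± 6.90 in these barcodes, Ms4a7, a membrane protein of mature macrophages, at 711 ± 89.97 against 12.5 ± 2.57, and Vcam1 at 220 ± 78.2 against 0.628 ± 0.62. Lower in members were Chil3, at 198 ± 95.1 against 3304 ± 1364 CPM, and Vcan at 15.7 ± 8.41 against 295 ± 99.0. All 17 monocyte genes other than Ly6c2 were lower in members in every tumor, where 28.8% of the 2578 genes compared were. Higher in every tumor were 8 of 9 MHC class II genes and 16 of 22 lipid and lysosome genes, where 24.7% of all genes were. Of the interferon list 11 of 16 genes and of the inflammatory list 11 of 21 were lower in every tumor, and 1 of each was higher. The neutrophil list had 6 of 7 genes lower in members in every tumor, with a median log2 ratio of -3.48, and the T and NK list 1 of 2, so these barcodes also carried more neutrophil transcripts, whose part was not tested. In the lipid and lysosome list the median log2 ratio of members was -0.50 to the Spp1-rich barcodes and 1.15 to the Ly6c2-positive ones.

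Tumor members were next compared with mucosa members, gene by gene, on UMIs summed per library. Only mucosa 3 held 20 or more members, so the main test set 10 tumors against 1 mucosa library, whose spread was taken to be that of the tumors, and a further test took all 3 mucosa libraries. The 10 tumors came from 3 animals, and p-values over tumors treat tumors of 1 animal as replicates. Of 12448 genes tested against mucosa 3 with edgeR's quasi-likelihood test, 264 (2.12%) passed a Benjamini-Hochberg adjusted p of 0.05, 185 higher in tumors (1.49%) and 79 lower (0.635%). Of 11418 tested against all 3 mucosa libraries 1035 (9.06%) passed, 763 higher (6.68%) and 272 lower (2.38%), and 205 genes were called in both. The balance of directions depended on scaling: with library totals in place of the trimmed mean of M-values 82 genes were higher and 172 lower, and with DESeq2 170 and 223. Against all 3 libraries DESeq2 called 450 higher and 789 lower. The median log2 fold change of all genes against mucosa 3 was 0.38 under the main scaling, 0.11 with totals, 0.33 with relative log expression and 0.24 with DESeq2, against all 3 libraries it was 0.26 with edgeR and -0.0063 with DESeq2, and each change should be read against it. The depth of members moved with tissue, and its part in these counts was not tested beyond the thinned comparisons, in which 30 of 8812 genes passed against mucosa 3 and 303 of 7623 against all 3 libraries, 269 of them higher.

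Many inflammatory genes were higher in tumor members under the wider test. Il1b, which encodes the fever-inducing cytokine interleukin 1 beta, was at 293, 1018 and 771 CPM in mucosa 1, 2 and 3 and at 1629 CPM in the lowest, 2444 in the median and 3148 in the highest tumor. The groups did not overlap, and the log2 fold change was 1.95 ± 0.41 (SE; edgeR, adjusted p = 0.026 against mucosa 3 and 3.5e-04 against all 3 libraries). Genes of other cells moved with the contrast: the neutrophil list summed to 188 to 604 CPM in tumor members and 13.9, 18.3 and 21.0 in those of mucosa 1, 2 and 3 (1 of 8 higher against mucosa 3 and 2 of 8 against all 3), the B and plasma list to 189 to 1087 against 126, 128 and 184, and the fibroblast and endothelial list to 24.6 to 85.9 against 0, and their part was not tested. Il1b transcripts also abounded in the other tumor barcodes, at a mean of 2491 CPM, and 7.72% of thinned T cells held one against 81.0% of members. Cxcl2, a chemokine for neutrophils, was at 112 CPM in mucosa 1, listed at 0 in mucosa 2 and 3, and at 1638 to 3574 CPM in tumors, with a mean of 2610 CPM that was at least 166-fold the level of mucosa 3, taken as 3 counts (edgeR adjusted p = 1.4e-04). Other tumor barcodes carried Cxcl2 at a mean of 3771 CPM. Arg1 was at 27.9, 18.3 and 21.0 CPM in mucosa and at 380, 766 and 1258 CPM in the lowest, median and highest tumor, a log2 fold change of 5.38 ± 1.07 (edgeR adjusted p = 0.024 and 5.1e-05). The interleukin 1 antagonist Il1rn was at 41.8, 202 and 26.2 CPM in mucosa and at 207 to 371 in tumors, and Nlrp3, the sensor of the inflammasome, at 13.9, 18.3 and 36.7 against 112 to 225. Il1a was found as a single UMI over all mucosa members and stood at 65.8 to 197 CPM in tumors. In all 9 of 27 inflammatory genes were higher against mucosa 3 and 19 of 27 against the 3 libraries, none lower. Beside these stand 1.49 and 6.68% of all genes called higher. For list medians, genes without mucosa UMIs were set to their bound, and those with a tumor level under it were left out. The median log2 fold changes were then 2.34 over 22 genes and 2.43 over 24, where all genes had 0.04 and 0.18. The hypoxia, lipid, stress and class II medians below were formed alike. Against mucosa 3 the count fell to 1 of 27 without the highest doublet scores and to 3 of 24 after thinning, and the wider count was 11 of 24 after thinning and 13, 13 and 12 without mucosa 1, 2 and 3. Il6 and Il10, a pair of cytokines with opposed roles, gave 1.56 to 10.7 and 1.38 to 8.95 CPM in tumors and passed neither test.

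Most hypoxia and glycolysis genes and 16 of 28 lipid and lysosome genes were higher in tumor members under the wider test, and fewer against mucosa 3 alone. Vegfa, the vessel growth factor, was a single UMI over the 65 mucosa members, listed at 0 in mucosa 2 and 3, and at 141, 190 and 343 CPM in the lowest, median and highest tumor, with a mean of 205 CPM that was at least 13-fold the level of mucosa 3, taken as 3 counts (edgeR adjusted p = 0.016). Hilpda, a protein of lipid droplets induced by hypoxia, was at 55.8, 9.17 and 10.5 CPM in mucosa and 177 to 327 in tumors (edgeR adjusted p = 0.0074 and 5.7e-05). Hif1a, the hypoxia-inducible factor itself, was at 83.7, 64.2 and 115 against 180 to 308 CPM, and the glucose transporter Slc2a1 at 13.9, 36.7 and 5.25 against 51.5 to 118. Together 4 of 22 hypoxia and glycolysis genes were higher against mucosa 3 and 15 of 21 against all 3 libraries, none lower, with medians of 1.15 and 1.25, beside 1.49 and 6.68% of all genes higher. The count against mucosa 3 was 1 of 21 both without the highest doublet scores and after thinning, and the wider count was 8 of 21 after thinning and 9 without mucosa 2. Fabp5, a carrier of fatty acids, was at 195, 110 and 121 CPM in mucosa and 544 to 1659 in tumors, with no overlap (3.22 ± 0.69, edgeR adjusted p = 0.030 and 2.1e-04). The lysosomal proteases Ctsd and Ctsl were at 544, 128 and 110 against 539 to 912 CPM and at 391, 229 and 168 against 592 to 1091 CPM, and the cholesterol exporter Abca1 at 41.8, 55.0 and 52.5 against 139 to 327. Of 28 lipid and lysosome genes 6 were higher against mucosa 3, and 16 were higher and 2 lower against all 3 libraries, with medians of 0.80 and 0.89. Without the highest doublet scores 2 of 28 were higher against mucosa 3, and after thinning 3 of 27, and the wider test then gave 10 of 25 higher and 1 lower. The 2 that were lower were Fabp4, at 1730 CPM in mucosa 1 and listed at 0 in mucosa 2 and 3, and Pparg, a lipid-sensing nuclear receptor, at 0, 36.7 and 36.7 CPM in mucosa and 0.991 to 7.86 in tumors. Apoe, the apolipoprotein, was at 20921, 7370 and 20322 CPM in mucosa and 24899 to 37923 in tumors, and Trem2, a lipid receptor, at 97.6, 36.7 and 257 against 315 to 482. Both were called against all 3 libraries (edgeR adjusted p = 0.0062 and 0.0061) and not against mucosa 3 alone (0.13 and 0.22).

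**Figure D4:**
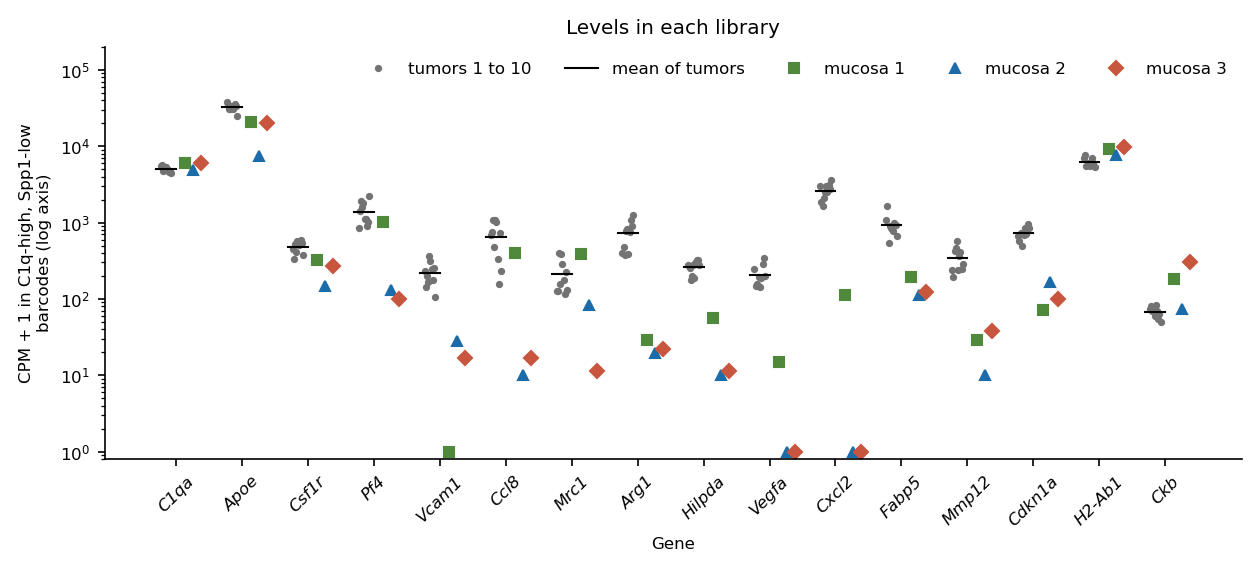
Level in members of each library (CPM + 1, log axis) for genes named in the text, with the 10 tumors as circles, their mean as a line and the 3 mucosa libraries as separate marks. Arg1, Mmp12, Fabp5 and Cdkn1a lie higher in each of the 10 tumors than in each of the 3 mucosa libraries, and Pf4, Mrc1 and Ccl8 of mucosa 1 lie within the range of the tumors.

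Of the markers, Pf4 and Vcam1 passed against mucosa 3 and Mrc1 and Ccl8 did not. Pf4 was at 1018, 128 and 99.7 CPM in mucosa and 847 to 2227 in tumors (log2 fold change 4.07 ± 0.65, edgeR adjusted p = 0.0085 and 0.014). Vcam1 was at 0, 27.5 and 15.7 CPM in mucosa and at 105, 215 and 364 in the lowest, median and highest tumor (4.14 ± 0.56 against all 3 libraries, edgeR adjusted p = 0.032 and 2.4e-04). Ccl8 was at 404, 9.17 and 15.7 CPM in mucosa and 158 to 1090 in tumors (edgeR adjusted p = 0.068 and 0.036), and Mrc1 at 391, 82.5 and 10.5 against 116 to 403 (0.074 and 0.33). Without mucosa 2 or mucosa 3 only Vcam1 of these markers passed the wider test, and without mucosa 1 all 4 did. Against mucosa 3 only Pf4 passed without the highest doublet scores or after thinning. Mucosa 1 lay inside the tumor range for Pf4, Mrc1 and Ccl8, and mucosa 2 and 3 below it. The wider macrophage identity list was more even, and fewer of its genes were called against mucosa 3 than against all 3 libraries. Cd14, the co-receptor for bacterial lipopolysaccharide, was called by both tests, at 335, 532 and 173 CPM in mucosa and 656 to 1997 in tumors, and 8 of 14 identity genes were higher against all 3 libraries, or 4 without mucosa 2 and 3 after thinning, beside 6.68% of all genes. Cd68, a lysosomal glycoprotein, at 307, 202 and 341 against 278 to 366 CPM, and the fractalkine receptor Cx3cr1, at 335, 238 and 283 against 153 to 366, overlapped between tissues and passed neither test.

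Among matrix, scavenger and complement genes, the metalloproteinase Mmp12 was at 27.9, 9.17 and 36.7 CPM in mucosa and 192, 322 and 570 in the lowest, median and highest tumor (log2 fold change 3.47 ± 0.74, edgeR adjusted p = 0.029 and 1.0e-04). Mmp14, which sits in the membrane, was at 13.9, 64.2 and 68.2 against 125 to 240 CPM, and thrombospondin, Thbs1, at 237, 0 and 78.7 against 255 to 1078. The scavenger receptor Msr1 was at 126, 27.5 and 42.0 against 176 to 319 CPM, and Lrp1, another receptor for debris, at 83.7, 18.3 and 57.7 against 158 to 238. Of the matrix and growth factor list 6 of 29 genes were higher against mucosa 3 and 5 of 28 against all 3 libraries, where 1.49 and 6.68% of all genes were. No gene of this list was called against mucosa 3 without the highest doublet scores or after thinning, and the wider count was 9 of 29 without mucosa 1. The efferocytosis and scavenging list gave 4 and 8 of 20, complement components and receptors 3 of 22 and 6 of 19, Fc receptors 2 and 5 of 7, and iron handling 1 of 20 and 7 of 19, with 1 iron gene lower in the wider test. Without mucosa 2 the wider counts were 5 of 20 for efferocytosis, 2 of 21 for complement, 3 of 7 for Fc receptors and 4 of 20 for iron, without mucosa 3 the complement count was 3 of 21, and without mucosa 1 the Fc receptor count was 3 of 7. After thinning they were 5 of 18, 4 of 17, 2 of 7 and 4 of 17. Against mucosa 3 the count of each of these lists was lower both without the highest doublet scores and after thinning. Hmox1 was at 195, 64.2 and 31.5 CPM in mucosa and 274 to 1099 in tumors (edgeR adjusted p = 0.066 and 0.0038), and the ferritin gene Fth1 at 6262, 17491 and 15443 against 18823 to 52108 (0.13 and 0.0023).

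Genes that respond to tissue dissociation moved with the same contrast. The immediate early gene Atf3 was at 13.9, 18.3 and 52.5 CPM in mucosa and 244 to 390 in tumors (log2 fold change 2.83 ± 0.41, edgeR adjusted p = 0.0061 and 1.4e-05), Junb at 628, 238 and 388 against 1007 to 1738, and Nr4a1 at 13.9, 0 and 10.5 against 84.1 to 163. Nr4a2, a related nuclear receptor, was a total of 3 UMIs in the mucosa and at 134 to 324 CPM in tumors, 28.6 times the pooled mucosa level (95% counting interval 9.80 to 139). Of the 23 genes of the dissociation stress list 10 were higher against mucosa 3, where 1.49% of all genes were, and 5 both without the highest doublet scores and after thinning. Against all 3 libraries, where 6.68% of all genes were higher, 16 were higher and 1, Klf2, was lower, at 628, 82.5 and 52.5 CPM in mucosa and 21.4 to 58.0 in tumors. The 16 became 8 without mucosa 2, 9 without mucosa 3 and 13 after thinning. The list's median was 1.82 and 1.34. Its sum over members was 7438 to 12784 CPM in tumors and 6862, 3850 and 4637 CPM in mucosa 1, 2 and 3. The macrophage transcription factor list, which shares Atf3, Nr4a1 and the Klf genes with it, gave 7 of 36 and 18 of 35 higher, with 2 lower in the wider test, and the 18 became 9 without mucosa 2, 11 without mucosa 3 and 8 of 34 after thinning. The 7 became 3 of 36 without the highest doublet scores and 1 of 35 after thinning. Because tumors and mucosa were dissociated differently, what part of the inflammatory and early genes follows dissociation cannot be told apart from tissue.

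Antigen presentation was not among the lists that were higher in tumors. H2-Ab1, a chain of the class II molecule, was at 9094, 7673 and 9767 CPM in mucosa and at 5404, 6089 and 7687 in the lowest, median and highest tumor, and Cd74, the class II invariant chain, at 18578, 16372 and 23322 against 12772 to 19314. Neither passed a test, with log2 fold changes of -0.37 ± 0.28 and -0.33 ± 0.29 against mucosa 3 (edgeR adjusted p = 0.58 and 0.63). Ciita, the master regulator of class II transcription, was at 153, 73.3 and 131 CPM in mucosa and 37.3 to 67.5 in tumors, with no overlap (edgeR adjusted p = 0.066 against mucosa 3 and 0.035 against all 3 libraries, where its log2 fold change was -0.85 ± 0.24). None of 14 class II genes was called against mucosa 3, while 2 were higher and 3 lower against all 3, with medians of -0.34 and -0.14. These counts moved with scaling: against mucosa 3, 3 of 14 were lower with library totals and 2 with DESeq2, and against all 3 DESeq2 gave 2 higher and 5 lower. Without mucosa 3 the wider test gave 3 higher and 0 lower, without mucosa 2 it gave 1 and 1, and after thinning 0 and 1. Of all genes tested against the 3 libraries 6.68% were higher and 2.38% lower. The class I list gave 0 and 1 of 16 higher, near the 1.49 and 6.68% of all genes, and the interferon list 0 and 4 of 26, with 1 and 0 of 26 in the wider test without mucosa 1 and without mucosa 2 and 2 of 25 after thinning. Cxcl9 was at 55.8, 458 and 173 CPM in mucosa and 132 to 753 in tumors and passed neither test (edgeR adjusted p = 0.26 and 0.060).

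**Figure D5:**
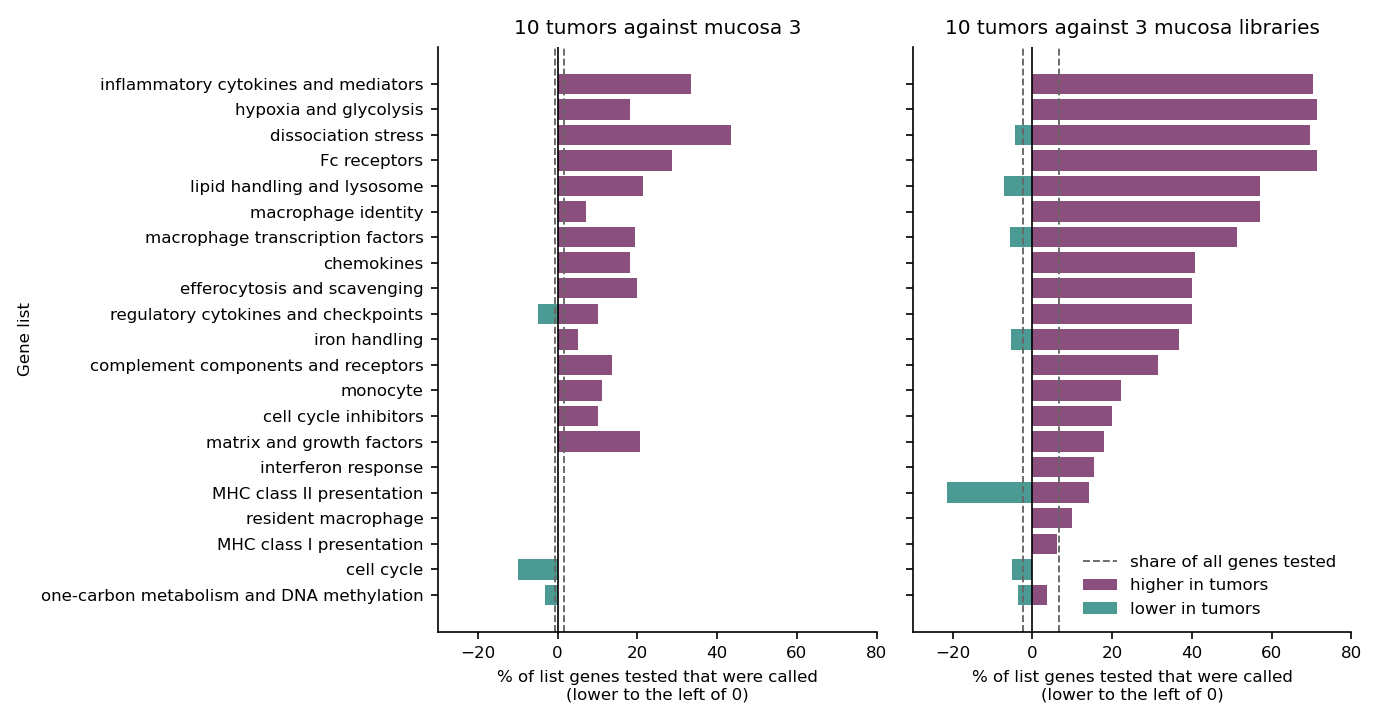
Genes of each list called higher (right of 0) or lower (left) in tumor members, as a percent of the genes tested, against mucosa 3 in one panel and all 3 mucosa libraries in the other, with dashed lines at the share of all genes. Of the lists shown, dissociation stress and inflammatory genes have the highest shares called higher against mucosa 3, 10 of 23 and 9 of 27, and the class II list has none, beside 1.49% of all genes.

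Genes of division and of the one-carbon pathway, which the diet supplies, gave 2 and 1 calls against mucosa 3, all lower in tumors, where 0.635% of all genes were lower. Mki67, a marker of dividing cells, was at 0, 202 and 42.0 CPM in mucosa and 26.5 to 67.2 in tumors, and 3.96% of thinned tumor members held a UMI against 8.81% of T cells. Of 20 cell cycle genes the helicase subunit Mcm6, at 13.9, 27.5 and 78.7 against 9.91 to 17.8 CPM, and the microtubule regulator Stmn1, at 0, 367 and 593 against 72.1 to 181, were lower against mucosa 3 (edgeR adjusted p = 0.017 and 0.032), and only Mcm6 against all 3 libraries. Neither without the highest doublet scores nor after thinning was a cell cycle gene called, and the wider test gave none after thinning and 1 higher without mucosa 3. Mucosa 1 was not on the side of mucosa 2 and 3 for Stmn1. The cell cycle list summed to 516, 2393 and 2481 CPM in members of mucosa 1, 2 and 3. Other mucosa barcodes held it at 2452 to 3096 CPM. In tumors it summed to 850 to 1481 CPM in members and 1395 to 2288 in other barcodes. The part of other cells in the cell cycle calls was not tested. Cdkn1a, the inhibitor p21 that halts division, was the 1 called member of 10 inhibitors against mucosa 3, at 69.7, 165 and 99.7 CPM in mucosa and 489, 714 and 947 in the lowest, median and highest tumor (log2 fold change 3.12 ± 0.39, edgeR adjusted p = 0.0045 and 1.4e-05). Of all genes 1.49% were higher against mucosa 3. Against all 3 libraries 2 of the 10 inhibitors were higher, beside 6.68% of all genes. Cdkn2a, the locus of the p16 epimutation, gave no UMI in the mucosa members and 0.495 to 4.18 CPM in tumor members, under the level that 3 counts give in any mucosa library, and the other tumor barcodes carried it at a mean of 22.9 CPM. Of 32 one-carbon and DNA methylation genes tested against mucosa 3, 1 was called, Cbs, which joins homocysteine to serine, at 0, 128 and 42.0 CPM in mucosa members and 0.122 to 1.70 in tumor members. The call was lost without the highest doublet scores (0 of 30 genes) and after thinning (0 of 22), and the wider test gave 1 higher and 1 lower of 28. Under the wider test 6.68% of all genes were higher and 2.38% lower. Other mucosa barcodes carried Cbs at a mean of 71.5 CPM. The one-carbon and DNA methylation list summed to 893, 1008 and 876 CPM in members of mucosa 1, 2 and 3. In other mucosa barcodes it summed to 886 to 1020 CPM. In tumors the sums were 629 to 872 CPM in members and 576 to 778 in other barcodes. Folr2, the folate receptor of tissue macrophages, was at 112 CPM in mucosa 1, listed at 0 in mucosa 2 and 3 and at 2.15 to 28.3 CPM in tumors, and passed neither test.

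The main scaling gave fewer genes lower in tumors than higher, an order that library totals and DESeq2 turned. By the naming rule, 8 stood apart between mucosa 3 and the tumors: Thap3, Cdk6, Timm21, Ckb, Ppfia4, Tbc1d1, Rfc2 and Tgfbr1. Ckb, a creatine kinase, was at 181, 73.3 and 304 CPM in mucosa and 48.9 to 81.8 in tumors (log2 fold change -1.91 ± 0.29, edgeR adjusted p = 0.0076 and 0.021), and Ppfia4 at 112, 73.3 and 173 against 34.2 to 62.7. Tgfbr1, a receptor for the cytokine TGF-beta, was at 139, 45.8 and 199 against 60.0 to 101 CPM, so mucosa 2 lay below every tumor (edgeR adjusted p = 0.025 and 0.33). Timm21, Tbc1d1, Rfc2 and Tgfbr1 did not pass against all 3 libraries. Direction turned for Thap3 after thinning, to a log2 fold change of 0.091, and against mucosa 1 and 2 alone for Timm21, Tbc1d1 and Tgfbr1, to 0.94, 0.87 and 0.27. The 12 genes named by the same rule as higher were Vegfa, Nr4a2, Arg1, Hilpda, Pf4, Vcam1, Ap1b1, Tob2, Mmp12, Fabp5, Aoah and Creb5, from 51 that met it, and all 12 passed against all 3 libraries too. Aoah, an enzyme that inactivates lipopolysaccharide, was at 27.9, 18.3 and 10.5 CPM in mucosa and 56.1 to 107 in tumors.

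The 3 mucosa libraries did not resemble each other. The 10 members of mucosa 1 carried Lyz2 at 20698 CPM, Ccr2 at 711, Fabp4 at 1730, Cd163 at 181 and Lyve1 and Folr2 at 112 each, where mucosa 2 and 3 had Lyz2 at 4684 and 7129, Ccr2 at 27.5 and 163, Lyve1 at 9.17 and 5.25 and the other 3 genes at 0. Cd163, Lyve1 and Folr2 mark macrophages that live long in tissue, and in tumor members they were at 0.165 to 11.3, 0 to 11.7 and 2.15 to 28.3 CPM. The resident macrophage list summed to 4226 CPM in mucosa 1, 1806 in mucosa 2 and 2282 in mucosa 3, and to 1968 to 3391 CPM in tumors, and 0 of its 22 tested genes were called against mucosa 3 and 2 of 20 against all 3, or 1 without mucosa 2 or mucosa 3, where 2.12 and 9.06% of all genes were called. The 19 members of mucosa 2 carried epithelial transcripts, and 7 of them held a Ptprc UMI. The 16 epithelial genes summed to 139, 19104 and 2502 CPM in mucosa 1, 2 and 3 and to 276 to 1405 CPM in tumors, and 1 of 15 was lower in tumors against mucosa 3 and 11 of 15 against all 3 libraries, where 0.635 and 2.38% of all genes were lower. Without mucosa 2 the 11 became 1. After removal of the highest doublet scores 28 genes were called against mucosa 3. Against all 3 libraries, members with no UMI of Epcam, Krt8, Csf3r, Jchain, Flt3 and Mki67 gave 323 called genes, 300 higher and 23 lower, and 3 of 8 epithelial genes lower. The part of doublets or free RNA in the mucosa members was not tested beyond these settings.

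Tumor members were also compared between the 3 animals. Of 11621 genes tested, 229 (1.97%) passed an edgeR test over the animals at an adjusted p of 0.05, and animal and age cannot be told apart. DESeq2 called 707, and edgeR with no filter on low counts 810. The number rests on single tumors: it was 0 without tumor 2 or tumor 4, where 1531 and 1741 genes had an unadjusted p under 0.05, 1 without tumor 7, 16 without tumor 1, 37 without tumor 5, 58 without tumor 6, 106 without tumor 8 and 320, 376 and 499 without tumor 9, 3 and 10. The 6 genes of lowest p were Gm42031, Dtx2, Slc15a2, Syce2, Nfkbia and Pclaf, and in each of them the mean of animal C was the highest or the lowest of the 3. Slc15a2, a peptide transporter, averaged 6.54, 2.08 and 0.387 CPM in A, B and C, so B lay nearer to C. Nfkbia, the inhibitor that NF-kappaB induces against itself, was at 341 to 395 CPM in the 4 tumors of animal C, 547 to 734 in those of animal A and 729 and 800 in those of animal B (edgeR adjusted p = 0.0214). Pclaf, a factor of DNA replication, was at 35.6 to 55.4 CPM in animal C, 14 to 30.2 in animal A and 12.9 and 18.6 in animal B. Dtx2 averaged 8.07 CPM in animal C against 18.6 and 17.5 in A and B, and Syce2 26.5 against 12.3 and 14.6. The tumors of animal C did not overlap those of the others in any of the 6 genes. The 6 were picked by lowest p in this test, so such separation can follow from the choice. The share of all tested genes without overlap was not computed. Other tumor barcodes carried Nfkbia at a mean of 722 CPM and Pclaf at 46.3, within the range of members. They carried Dtx2 and Syce2 below the member mean of each animal. The part of other cells in these differences was not tested.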

How the data were processed

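Cells of 10 colon tumors and 3 samples of adjacent mucosa were profiled with the 10x Genomics 3′ v3.1 kit. The authors deposited 1 matrix of raw UMI counts per sample, made with Cell Ranger 6.0.0 on mm10 by the submitters' processing notes, in which each row is a gene and each column a barcode. Here a barcode was kept if it reached 500 UMIs and 200 genes with under 25% of UMIs mitochondrial. No doublet removal by the authors is stated for these files, so a score against barcode pairs summed at random was computed per library, its highest scorers were kept in the main results and removed in an alternative. The members, gene lists and splits were chosen with earlier results of these data known.

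Counts of members were summed per library and compared with edgeR 4.0.16 in R 4.3.3 (trimmed mean of M-values, filterByExpr, quasi-likelihood test, Benjamini-Hochberg adjustment over all genes tested), in libraries with at least 20 members and, as an alternative, at least 10. The 7 genes of the rule were fitted and not read. DESeq2 1.42.0 was an alternative. Levels are CPM of the summed counts. Between kinds of barcodes inside tumors, genes of at least 50 CPM were set side by side per library with no test, and the gene that made a split or gate was left out of its list counts. Shares were compared by exact permutation of tissue within animals. Named from the tumor and mucosa test were the markers and, per direction, the 12 largest changes at an adjusted p of 0.05 among genes that did not overlap between the tumors and mucosa 3, reached 50 CPM and stood at least 2 times above the other barcodes of the higher tissue, leaving out rule, mitochondrial, ribosomal and unnamed genes. List members named are mostly those called in both tests, and others were chosen after their values were seen. From Ly6c2-positive barcodes, Spp1-rich barcodes and the splits, genes came from the 10 largest differences in each direction, and between animals from the 6 lowest p. The scripts were tested on simulated counts of 1 fixed spread, the same in tumor and mucosa libraries. The rates that follow need not hold for the measured counts. With 10 tumors against 1 mucosa library, 8% of 2-fold and 52% of 4-fold changes were recovered, and 5.56% of calls were false. With 3 mucosa libraries these were 32, 74 and 8.98%. A gene that passed neither test may therefore still differ. Libraries of 1 animal carried the same code in the labels, and p-values measure the spread between libraries. In the main gene test, with 1 mucosa library, that is the spread between tumors only. The correlation of tumor with mucosa deviations from their tissue means was 0.029 in animal A, -0.022 in B and -0.014 in C over 11422 genes. The mucosa sums behind it hold 10, 19 and 36 members, so counting error can hide a deviation shared by animal. The correlation cannot decide whether a block is needed. The main gene test had no block, and counts with a block by animal are given among the alternatives. The alternatives changed the gate, the depth, the scaling, the filter, the libraries and the block, and intervals cover counting error only. Thinning left out members under 2000 UMIs, 12 of 65 in mucosa and 96 of 5136 in tumors, and cut the UMIs of the others. Counts after thinning therefore also reflect fewer UMIs and a changed set of members.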

Additional observations from a re-analysis of the deposited data

Results flagged for a closer look

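In 4 of 55 groups of 10 tumors examined, 1 tumor stood far from the rest by Dixon's test, where chance gives about 3 at 1 in 20. Fabp5, the fatty acid carrier, was at 1659 CPM in members of tumor 2, with the next tumor at 1083. Ap1b1 was at 96.3 CPM and Tgfbr1 at 101 CPM in tumor 3, with the next at 72.0 and 82.1. The interferon list summed to 4434 CPM in tumor 9, with the next at 3260.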

How the results depend on the processing

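The share difference stayed between 1.93 points, with stricter exclusion (no UMI of 6 further genes), and 6.63 under every gate tried and past the threshold with all 3 animals, and was 4.91 to 5.26 without 1 animal each (5.18 without A and 4.91 without C, both at an exact permutation p of 0.0667). The 264 genes called against mucosa 3 became 47 with a C1q minimum of 40 UMIs, 28 without the highest doublet scores, 30 after thinning and 1035 with all mucosa libraries, and, where the mucosa libraries in the test changed as well, 2467 with a C1q minimum of 10 UMIs and 560 with a gate relative to depth (2 mucosa libraries each) and 504 on sums per animal (3), and 213 to 316 without 1 tumor. Chosen after seeing the data, with all 3 mucosa libraries, DESeq2 called 1239, 450 higher and 789 lower, and fits without 1 library gave 383 to 1112, with 1112, 383 and 613 without mucosa 1, 2 and 3 and 880 to 1079 without 1 tumor. With a replicate block by animal the count was 393 against mucosa 3 and 1143 against all 3, and with a replicate block by replicate number 439 against all 3, a number that pairs no samples here since mucosa and tumors of 1 number are often of different animals. The 229 genes between animals became 810 with no filter, 707 with DESeq2, 148 without any Spp1 UMI and 0 to 499 without 1 tumor.

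Of 2752 values of 64 named genes under all settings 2313 kept direction and side of the threshold, 411 lost the call, 24 gained one and 4 turned: Thap3 at 0.091 after thinning, and, against mucosa 1 and 2 alone, Timm21 at 0.94, Tbc1d1 at 0.87 and Tgfbr1 at 0.27, from lowest values of -2.03, -1.61 and -1.17 without 1 library. The causes were not tested. List medians were compared in part of the settings only. In those, the cell cycle list's median log2 fold change lay below that of all genes except under stricter exclusion with all libraries (0.70 over 8 genes against 0.52). The resident list's was 2.85 against mucosa 3 and 0.11 against all 3. It was 1.40 and -0.10 where genes without mucosa UMIs were set to their bound or, with a tumor level under it, left out. Not run, with no or 1 mucosa library left, were stricter exclusion at 20 members, a minimum of 50 members, the test without mucosa 3 and the number block at 20 members. The 65 mucosa members, with 371417 UMIs in all, limit every tissue comparison.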
